A study of Homo sapiens with 16 samples.

Results

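Integrins and laminins are the receptors and the ligands in the attachment between cells and basement membranes. An integrin pairs an alpha with a beta chain, and ITGB1 is the beta chain with the most partners. A laminin is a trimer of an alpha, a beta and a gamma chain, and its alpha chain carries the main binding sites for integrins. In brain, laminins line blood vessels, along which glioma cells are known to migrate. The genes described here are all those whose symbol names an integrin alpha, an integrin beta or a laminin chain. The rule reads symbols and no measured value, although the gene families were picked with earlier results of these data known. They came to 33 of the 18529 genes listed in either expression table, 14 integrin alpha, 8 integrin beta and 11 laminin chains, and 30 were in both tables. ITGA8, ITGA9, ITGA11, ITGAD and LAMC3 are not analysed here.

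The tumours were grown in the brains of nude mice from luciferase-expressing U87, an established human glioblastoma line that the labels give as wild type, and each library came from 1 mouse. Every mouse, controls included, received exosomes from MSC (the labels' abbreviation, usually read as mesenchymal stromal cells). Myc1 (n = 3) had human anti-Myc siRNA#1 in the exosomes and Scr1 (n = 4) scramble-siRNA#1, while Myc2 (n = 5) had anti-Myc siRNA#2 and Scr2 (n = 4) scramble-siRNA#2. For Myc1 and Scr1, injections into the retro-orbital sinus started on day 28 and were given every other day with 1e9 exosomes in 100 µl; the schedule of the second pair is not given in the sources used here. Tumours were taken at euthanasia, so the time of sampling differed between mice, and nude mice lack T cells. Levels are log2 CPM (reads per gene scaled to 1e6 reads in all, on the log2 scale) as deposited, and each table was normalized on its own, which restricts comparisons of levels to 1 table at a time. These are bulk samples, in which fewer cells of a type and less RNA per cell cannot be told apart. The vessels and leukocytes of the host are mouse cells, whereas the levels are those of human genes. How mouse reads were separated is not given in the sources used here. Sums of marker genes below therefore do not measure the number of such host cells.

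Library size, estimated from the spacing of the lowest values, was 15.2 to 24.0 M reads (M, 1e6) in the first experiment except for 3.38 M in Scr1 replicate 3. In the second it was 15.2 to 29.6 M except for 10.5 M in Scr2 replicate 4. On the first principal component of the second experiment, which held 43.8% of the variance, Scr2 replicates 1 and 4 lay at -63.4 and -94.4 and the other libraries between 2.74 and 47.6. The main results of that experiment are therefore given with and without these libraries. MYC, the siRNA target, was at 5.25, 4.73 and 3.84 log2 CPM in Myc1 tumours and at 4.41, 4.92, 5.66 and 6.75 in Scr1 tumours, and the groups overlapped (difference -0.83, exact two-sided permutation p = 0.314). In the libraries labelled Myc2 it was at 5.79, 5.85, 5.56, 6.17 and 5.40, against 5.33, 5.14, 5.56 and 4.70 in those labelled Scr2 (difference 0.57, exact two-sided permutation p = 0.0397). The mean of the target was thus higher in the libraries labelled Myc2, against the label, although the groups overlapped, with Scr2 replicate 3 above Myc2 replicates 3 and 5. The difference was 0.40 without Scr2 replicates 1 and 4, and with 1 library left out the exact permutation p ran from 0.0357 to 0.107, missing 0.05 in 8 of 9 cases. The U87 and glioma marker list, of which 8 of 8 genes were in both tables, summed to 6217 to 8284 CPM in Myc1, 6345 to 7460 in Scr1, 6365 to 7966 in Myc2 and 4418 to 7272 in Scr2.

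Per kilobase of exon, the tumours had a narrow set of abundant chains. Among integrin alpha chains, ITGA3, a laminin receptor chain, was the most abundant, at 118 ± 16.0 CPM per kb in Myc1 and 145 ± 44.6 in Scr1 (SD, n = 3 and 4). ITGA5, the fibronectin receptor chain, followed at 99.9 ± 18.3 in Myc1 and 110 ± 31.9 in Scr1. Their ranges over tumours overlapped in Scr1, at 116 to 212 for ITGA3 and 82.8 to 153 for ITGA5, and in Myc1, at 99.5 to 129 and 88.5 to 121. Both chains were measured in the same tumours, and within each of these tumours ITGA3 lay above ITGA5 per kb. ITGA7 and ITGA10, receptor chains for laminin and collagen, came next, at 22.2 ± 2.32 and 20.6 ± 4.38 in Myc1 and 26.0 ± 5.28 and 23.7 ± 9.99 in Scr1. ITGB1 made up 83.9% of the integrin beta level in Myc1 and 78.9% in Scr1, and ITGB5, a partner of ITGAV, 12.6% and 17.7%.

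LAMA5, the alpha chain of many adult basement membranes, made up 80.7% of the laminin alpha level per kb in Myc1 and 90.9% in Scr1. LAMA4, the alpha chain typical of vessels, muscle and fat, made up 14.7% and 5.08%. LAMB1 was the most abundant beta chain, at 52.7 ± 4.45 CPM per kb in Myc1 and 45.0 ± 7.96 in Scr1. LAMB3, LAMB2 and the gamma chain LAMC1 stood at 26.3 ± 5.32, 24.5 ± 3.13 and 48.9 ± 7.33 in Myc1 and at 26.3 ± 9.52, 25.9 ± 5.20 and 45.2 ± 13.6 in Scr1. In the second experiment the leading chains were again ITGA3 (123 ± 16.8 in Myc2, 84.5 ± 44.6 in Scr2), ITGB1 (190 ± 34.4 and 157 ± 52.8), LAMA5 (80.5 ± 28.1 and 45.9 ± 32.0), LAMB1 (48.4 ± 10.3 and 35.4 ± 10.7) and LAMC1 (42.5 ± 9.40 and 34.5 ± 13.2). LAMB2 (43.5 ± 14.9 and 25.6 ± 14.1) overlapped LAMB1, with ranges of 27.3 to 65.9 and 33.2 to 61.5 in Myc2. In Scr2 the ranges were 10.3 to 41.6 and 22.4 to 48.7. Both chains were measured in the same tumours, and LAMB1 lay above LAMB2 per kb in most of these tumours but not in all. LAMA5 made up 95.9% of the laminin alpha level in Myc2 and 94.3% in Scr2.

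**Figure D1:**
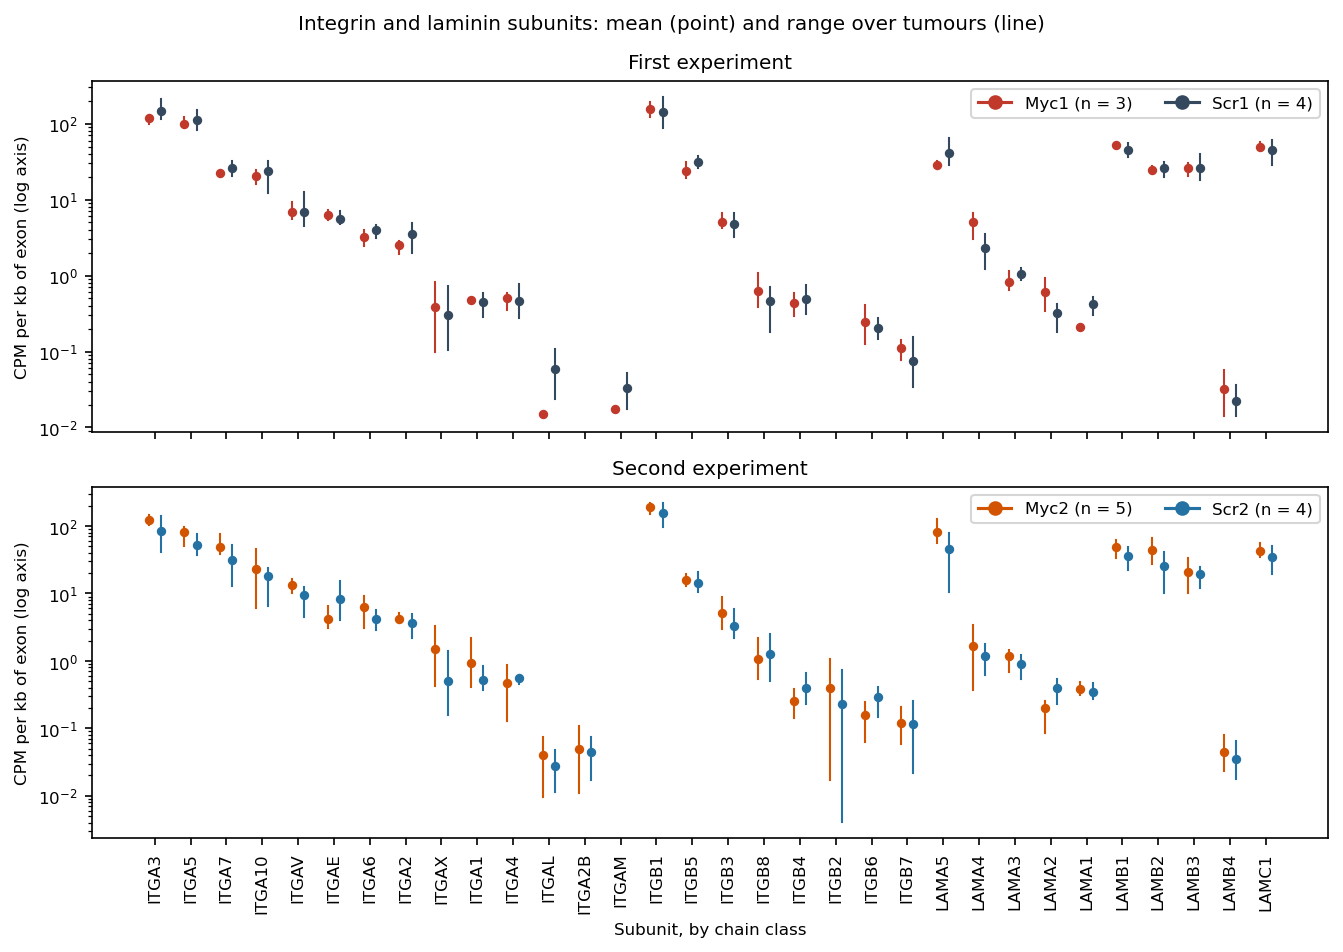
Levels of the subunits in CPM per kilobase of exon on a log axis, with the mean as a point and the range over tumours as a line, for Myc1 and Scr1 (top) and Myc2 and Scr2 (bottom). ITGA3, ITGA5, ITGB1, LAMA5, LAMB1 and LAMC1 lie at the top of their chain classes, and LAMA4 lies higher in Myc1 (mean 5.11 CPM per kb) than in Scr1 (mean 2.28).

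Of the members, 27 of 31 in the first table and 28 of 32 in the second reached 1 CPM in as many tumours as the smaller group had, and only these were tested. Below that limit in the first experiment were ITGAL and ITGAM, chains of leukocyte integrins, ITGB7, a lymphocyte chain, and LAMB4, with highest values of -0.53, -1.75, -0.53 and -1.30 log2 CPM. In the second they were ITGAL, ITGB7, LAMB4 and ITGA2B, the platelet chain, with highest values of -1.06, 0.20, -0.84 and -0.75. Other chains of leukocytes were higher: ITGAE averaged 5.39 log2 CPM in Myc1 and 5.18 in Scr1, and ITGAX also passed the limit. Of the microglia and leukocyte markers, 3 of 9 were in the first table and 6 of 9 in the second. CD68 averaged 8.43 in Myc1 and 8.09 in Scr1, CSF1R 4.04 and 4.29 and CD14 -0.99 and -0.75. PTPRC, AIF1, TYROBP, CX3CR1, LAPTM5 and CD53 are not analysed here in the first experiment. The list summed to 332 to 403 CPM in Myc1 and 247 to 347 in Scr1.

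The promoters bear on a plain question of sequence, since MYC with its partner MAX binds the E-box CACGTG. RefSeq promoters (GRCh38.p14, from 250 bases before to 50 after the start) were on hand for 24 of the 33 members, as 31 entries. CACGTG, which reads the same on both strands, occurred in 1 of the 31, against 7.26% of the 35116 promoters of the table. The match lay in an ITGA6 promoter, with its first base at -101 from the start. LAMA4, which has the smallest p among the members in the first experiment, is shown beside it; its 300 bases do not hold these letters. Capitals mark the E-box, and neither sequence says whether a factor binds there.
ITGA6 promoter, chr2:172427086-172427385, plus strand: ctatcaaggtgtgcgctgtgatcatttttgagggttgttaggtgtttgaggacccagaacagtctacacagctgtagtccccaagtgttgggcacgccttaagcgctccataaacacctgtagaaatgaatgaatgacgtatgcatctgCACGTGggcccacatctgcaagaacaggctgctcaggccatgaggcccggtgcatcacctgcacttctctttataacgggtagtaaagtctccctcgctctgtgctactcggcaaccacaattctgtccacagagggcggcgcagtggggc
LAMA4 promoter, chr6:112254518-112254817, minus strand: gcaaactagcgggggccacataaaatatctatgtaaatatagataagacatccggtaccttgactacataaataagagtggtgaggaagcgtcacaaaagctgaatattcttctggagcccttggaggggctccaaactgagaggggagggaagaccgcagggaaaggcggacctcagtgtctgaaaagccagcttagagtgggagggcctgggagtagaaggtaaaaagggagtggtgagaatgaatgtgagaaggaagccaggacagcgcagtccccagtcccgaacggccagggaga

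With siRNA 1, no subunit passed the adjusted threshold of 0.05, and the largest differences lay among the laminin alpha chains. LAMA4 was higher in Myc1 and LAMA1, an alpha chain of embryonic basement membranes, lower. The abundant chains ITGA3, ITGB1, LAMB1 and LAMC1 differed by 0.27 log2 units or less in size, while LAMA5, also abundant, differed by -0.46 and ITGB5 by -0.45. Limma called 0 of the 13933 genes tested (percent called 0), and the members' adjusted p ran from 0.996 to 0.997. At an unadjusted p under 0.05 stood 2 of 27 members, against 3.48% of all genes tested. Of these 1 was higher, against 1.96% of all genes, and 1 lower, against 1.52%, and 14 of 27 lay above 0, against 49.5%. The members' median difference was 0.04 and their median absolute difference 0.21, the same as over all genes tested at this rounding (0.21).

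LAMA4 stood at 5.15, 6.04 and 6.25 log2 CPM in Myc1 tumours and at 3.80, 5.35, 5.17 and 3.88 in Scr1 tumours. Scr1 replicates 1 and 4 were low, Scr1 replicates 2 and 3 reached the lowest Myc1 tumour, and so the groups overlapped. The difference was 1.26 ± 0.42 (SE) log2 units with a 95% interval of 0.35 to 2.18 (limma adjusted p = 0.996), and it ran from 1.01 to 1.60 with any 1 library left out. Human genes that mark endothelium, a cell type rich in this chain, summed to 2.64 to 3.58 CPM in Myc1 and 2.83 to 4.48 in Scr1. Of these markers 4 of 8 were in the table, with PECAM1, CDH5, CLDN5 and FLT1 not among them. The vessels of the host are mouse cells, and the part of these markers in the result was not tested. LAMA1 stood at 1.85, 1.69 and 1.66 in Myc1 and 2.59, 2.90, 2.25 and 3.04 in Scr1. Every Myc1 tumour lay below every Scr1 tumour, which held for 1 of 27 members and for 2.27% of all genes tested in that direction. The reverse held for 0 members and for 1.94% of all genes. The LAMA1 difference was -0.96 ± 0.34 with an interval of -1.68 to -0.24 (limma adjusted p = 0.996), and it stayed between -1.11 and -0.85 with 1 library left out.

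LAMA2, the alpha chain of muscle and of vessel-associated glial basement membranes, stood at 2.56, 1.82 and 3.26 in Myc1 and 1.95, 2.12, 0.89 and 1.76 in Scr1. The lowest value was that of the shallow Scr1 replicate 3, and the groups overlapped (difference 0.86 ± 0.43, limma adjusted p = 0.996). The difference was 0.51 without Myc1 replicate 3 and 1.23 without Myc1 replicate 2. LAMA5 stood at 8.86, 8.52 and 8.55 in Myc1 and 8.78, 9.09, 8.69 and 9.87 in Scr1, and its difference of -0.46 ± 0.26 was -0.21 without Scr1 replicate 4. LAMA3, the alpha chain of epithelial laminins, stood at 3.26, 4.06 and 3.24 in Myc1 and 3.89, 4.03, 4.20 and 3.67 in Scr1 (difference -0.43 ± 0.30). Both overlapped between groups, so of the 5 laminin alpha chains 2 lay above 0 and 3 below.

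Among integrins the smallest p belonged to ITGB5, at 7.67, 6.96 and 6.99 in Myc1 and 7.94, 7.40, 7.53 and 7.76 in Scr1. Replicates 2 and 3 of Myc1 lay below every Scr1 tumour and replicate 1 lay among them (difference -0.45 ± 0.23, limma adjusted p = 0.996). ITGA2, a collagen receptor chain, stood at 4.50, 4.48 and 3.94 in Myc1 and 3.98, 5.28, 4.45 and 5.12 in Scr1 (difference -0.40 ± 0.32). ITGA6, a laminin receptor chain, stood at 4.69, 4.42 and 4.00 in Myc1 and 4.91, 4.64, 4.34 and 4.89 in Scr1 (difference -0.32 ± 0.26). Both overlapped between groups. The 3 chains of laminin receptors, ITGA3, ITGA6 and ITGA7, all lay below 0 with a median of -0.27, and none reached an unadjusted p under 0.05. ITGA3 was at -0.07 and ITGA7 at -0.10 without Scr1 replicate 4, and ITGA6 at -0.14 without Myc1 replicate 3. ITGB3, a beta chain that pairs with ITGAV, has 2 rows under its symbol in the first table. Its difference was 0.10 for the more abundant row and -0.11 for the mean of the rows.

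**Figure D2:**
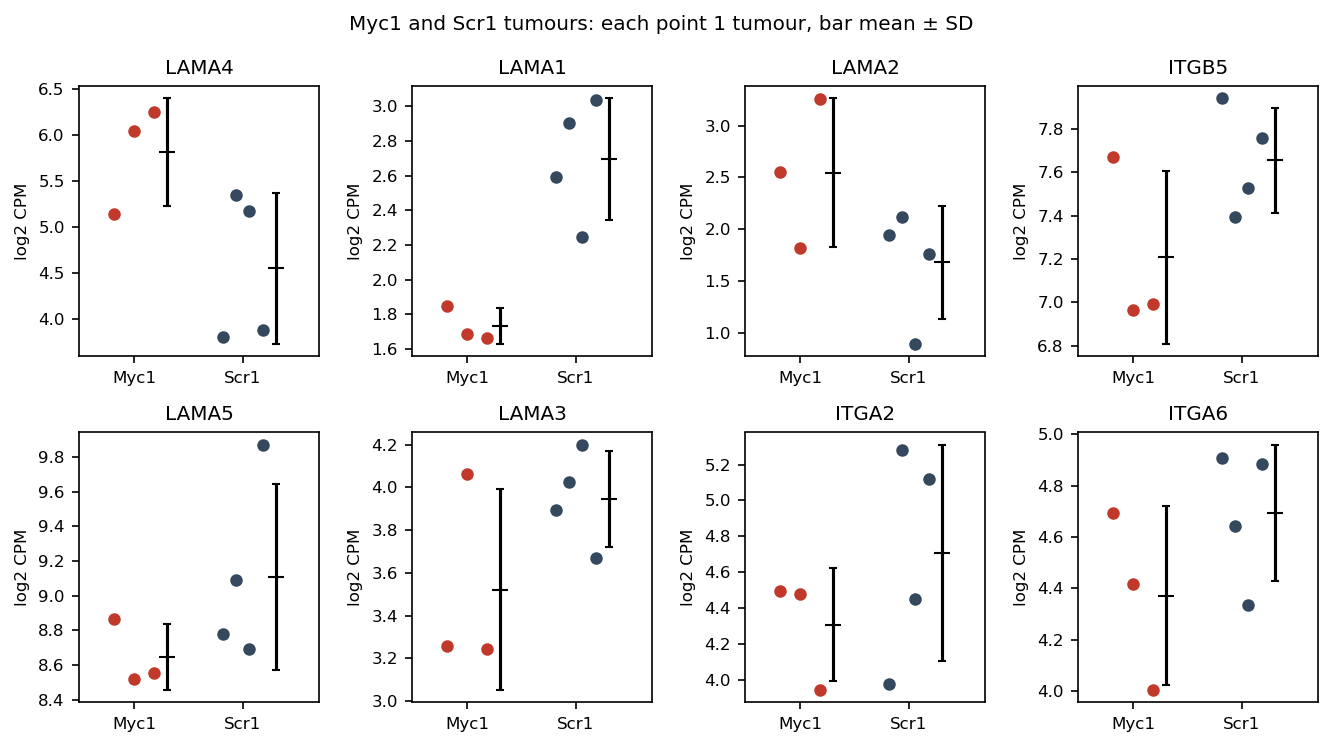
Log2 CPM in each Myc1 tumour (left) and Scr1 tumour (right) for the 8 subunits with the smallest p, with mean ± SD beside the points. LAMA1 is the panel whose groups do not overlap, and LAMA4 is high in Myc1 and in Scr1 replicates 2 and 3.

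With siRNA 2, no subunit passed the adjusted threshold either. The abundant laminin chains LAMA5 and LAMB2 and the alpha chains ITGA3, ITGA5 and ITGAX had higher means in the Myc2-labelled libraries, and LAMA2 a lower one, each at an unadjusted p under 0.05. Of 28 members, 21 lay above 0, against 48.2% of all genes tested, and 6 had an unadjusted p under 0.05, against 13.4%. The 5 higher stand against 7% of all genes and the 1 lower against 6.36%, and the groups overlapped for all 28, while 1.4% of all genes were higher and 1.61% lower without overlap. Limma called 0 of 14208 genes (percent called 0), the members' adjusted p ran from 0.370 to 0.902, and their median difference was 0.34, against -0.02 over all genes tested. Without Scr2 replicates 1 and 4 the median was 0.10 and 19 of 28 members lay above 0, against 46% of all genes tested. Limma then called 2 of 14639 genes (0.0137%), none of them a member, and 1 member had an unadjusted p under 0.05, against 3.48%. It was higher, against 2.01% of all genes, and 0 were lower, against 1.47%. The U87 and glioma list, which holds MYC itself, had 8 of 8 genes above 0 with a median of 0.49, or 6 of 8 and 0.15 without Scr2 replicates 1 and 4. The tested endothelial markers had 4 of 4 above 0, or 3 of 4 without those libraries, and the list summed to 4.72 to 13.7 CPM in Myc2 and 4.26 to 6.74 in Scr2. CDH5 differed by 2.28 ± 0.91, or 1.92 without them, at low levels that averaged 1.04 log2 CPM in Myc2 and -1.24 in Scr2. The other tested endothelial markers, KDR, TEK and VWF, differed by 0.49, 0.34 and 0.03, or -0.05, 1.16 and 0.04 without those libraries. NOTCH3, a pericyte marker, differed by 1.58 ± 0.37, or 1.05 without them. The pericyte and vessel muscle list did not follow NOTCH3 as a whole, with RGS5 at -0.40 and MYH11 at -0.29. Its 6 tested genes had a median of 0.16 with 4 above 0. Without those libraries the median was -0.12, with 3 above 0 and 3 below. PECAM1, CLDN5 and FLT1 are not analysed here, and the part of these markers in the results was not tested.

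LAMA5 stood at 10.07, 9.94, 10.06, 10.85 and 9.63 log2 CPM in the libraries labelled Myc2 and at 8.66, 10.15, 9.86 and 7.22 in those labelled Scr2. Scr2 replicates 1 and 4 were the lowest of the 9 libraries and Scr2 replicates 2 and 3 lay among the Myc2 libraries. The difference was 1.13 ± 0.51 with an interval of 0.02 to 2.25 (limma adjusted p = 0.370), and 0.10 with an interval of -0.53 to 0.73 without those replicates. LAMB2, the beta chain of mature vessel and synaptic laminins, stood at 8.42, 8.82, 7.55, 7.94 and 8.06 in Myc2 and 6.94, 8.16, 7.80 and 6.15 in Scr2. The same Scr2 libraries were lowest, and the difference of 0.895 ± 0.39 (limma adjusted p = 0.370) was 0.18 without them.

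ITGA3 stood at 10.14, 10.17, 10.35, 10.49 and 9.99 in Myc2 and at 9.15, 9.91, 10.43 and 8.64 in Scr2. Its difference of 0.69 ± 0.31 (limma adjusted p = 0.370) was 0.06 without Scr2 replicates 1 and 4. ITGA7 stood at 8.05, 8.95, 7.95, 8.02 and 8.10 in Myc2 and 6.93, 8.38, 8.03 and 6.37 in Scr2, and its difference of 0.79 ± 0.38 was 0.0074 without them. Scr2 replicates 1 and 4 were the 2 lowest of the 9 libraries for both chains, so leaving them out had to lower the difference. Both laminin receptor chains kept almost none of their difference once these libraries were left out. ITGA5 stood at 9.44, 8.58, 9.53, 9.53 and 8.97 in Myc2 and at 8.56, 8.51, 9.17 and 8.12 in Scr2. Here 3 Myc2 libraries lay above every Scr2 library, and the difference of 0.62 ± 0.26 (limma adjusted p = 0.370) was 0.37 ± 0.29 without Scr2 replicates 1 and 4.

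LAMA2 lay the other way, at 1.34, -0.16, 1.41, 1.30 and 0.81 in Myc2 and 2.34, 1.27, 1.60 and 2.50 in Scr2. Scr2 replicates 1 and 4 were here the highest of the 9, and the difference of -0.99 ± 0.41 (limma adjusted p = 0.370) was -0.50 ± 0.47 without them. ITGAE, the alpha chain of lymphocytes that bind E-cadherin, stood at 4.59, 4.70, 5.44, 4.35 and 4.78 in Myc2 and 5.96, 4.80, 4.73 and 6.67 in Scr2. Its difference of -0.77 ± 0.38 was 0.0053 without Scr2 replicates 1 and 4. ITGAE overlaps HASPIN on the opposite strand, ITGA7 overlaps BLOC1S1 and METTL7B, LAMA5 overlaps ADRM1 and LAMB1 overlaps DLD in the same way. It is unknown if reads were counted by strand. If they were not, any reads from shared bases could not be told apart. Whether these overlaps added reads to the 4 chains was not tested.

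ITGAX, the alpha chain of a complement receptor of dendritic cells and microglia, stood at 1.56, 4.54, 4.00, 2.61 and 2.47 in Myc2 and at 0.16, 3.31, 0.62 and 0.70 in Scr2. Scr2 replicate 2 lay among the Myc2 libraries and the other Scr2 libraries below all of them. The difference was 1.84 ± 0.72 with an interval of 0.26 to 3.41 (limma adjusted p = 0.370), 2.54 without Scr2 replicate 2 and 1.07 ± 0.94 without Scr2 replicates 1 and 4. ITGB2, its partner chain, was at -3.11, 2.23, 2.84, -1.43 and 0.14 in Myc2 and -1.70, 2.34, -5.16 and -0.42 in Scr2. The libraries with the most ITGB2, Myc2 replicates 2 and 3 and Scr2 replicate 2, also had the most ITGAX. Markers of microglia and leukocytes summed to 181 to 278 CPM in Myc2 and 165 to 270 in Scr2, with Scr2 replicate 2 at the lowest sum. Most of that sum was CD68, which averaged 7.69 log2 CPM in Myc2 and 7.67 in Scr2, and CSF1R averaged 3.68 and 3.65. The low markers went both ways, with PTPRC at -3.42 in Myc2 and -0.79 in Scr2, CD14 at -1.54 and -0.39, LAPTM5 at -1.35 and -2.56 and CD53 at -2.18 and -3.11. Their part in the result was not tested.

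Across the 28 tested members, Scr2 replicates 1 and 4 were the 2 lowest of the 9 libraries for 7 (ITGA2, ITGA3, ITGA7, ITGAV, ITGB1, LAMA5 and LAMB2), or 25%, against 19.5% of all genes tested. They were the 2 highest for 3 (ITGAE, ITGB6 and LAMA2), or 10.7%, against 21.4%. Scr2 replicate 4 alone was lowest for 14 members, or 50%, against 24.9% of all genes. ITGB5 was the member with the smallest p once both were left out. It stood at 6.98, 6.38, 6.69, 6.63 and 6.63 in Myc2 and 7.07, 6.07, 6.28 and 6.47 in Scr2, with Scr2 replicate 1 the highest of all. Its difference was 0.19 ± 0.21 with all libraries and 0.49 ± 0.18 without Scr2 replicates 1 and 4, when every Myc2 library lay above both remaining Scr2 libraries (limma adjusted p = 0.999). It was the 1 member without overlap in that set, against 3.39% of all genes tested in that direction and 4.37% in the other.

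**Figure D3:**
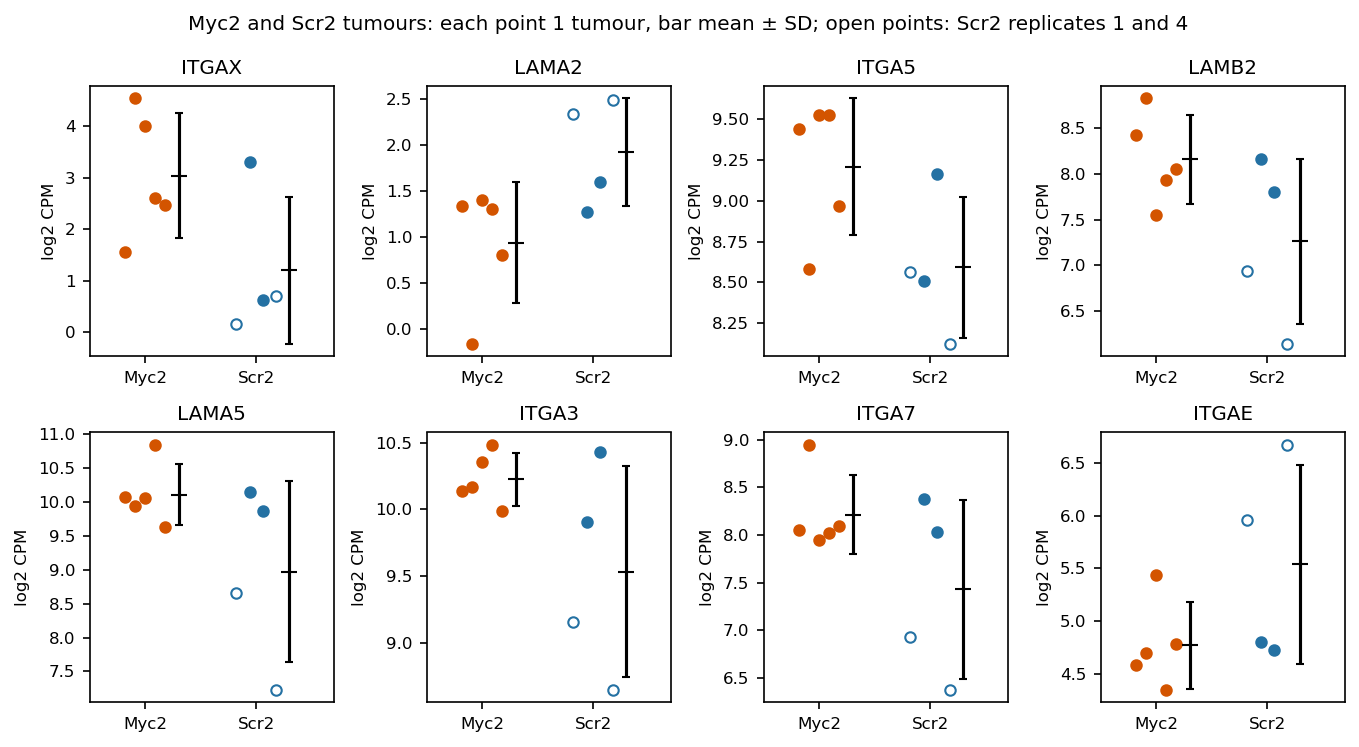
Log2 CPM in each library labelled Myc2 (left) and Scr2 (right) for the 8 subunits with the smallest p, with mean ± SD and with Scr2 replicates 1 and 4 as open points. The open points are lowest for LAMA5, LAMB2, ITGA3 and ITGA7 and highest for LAMA2 and ITGAE.

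**Figure D4:**
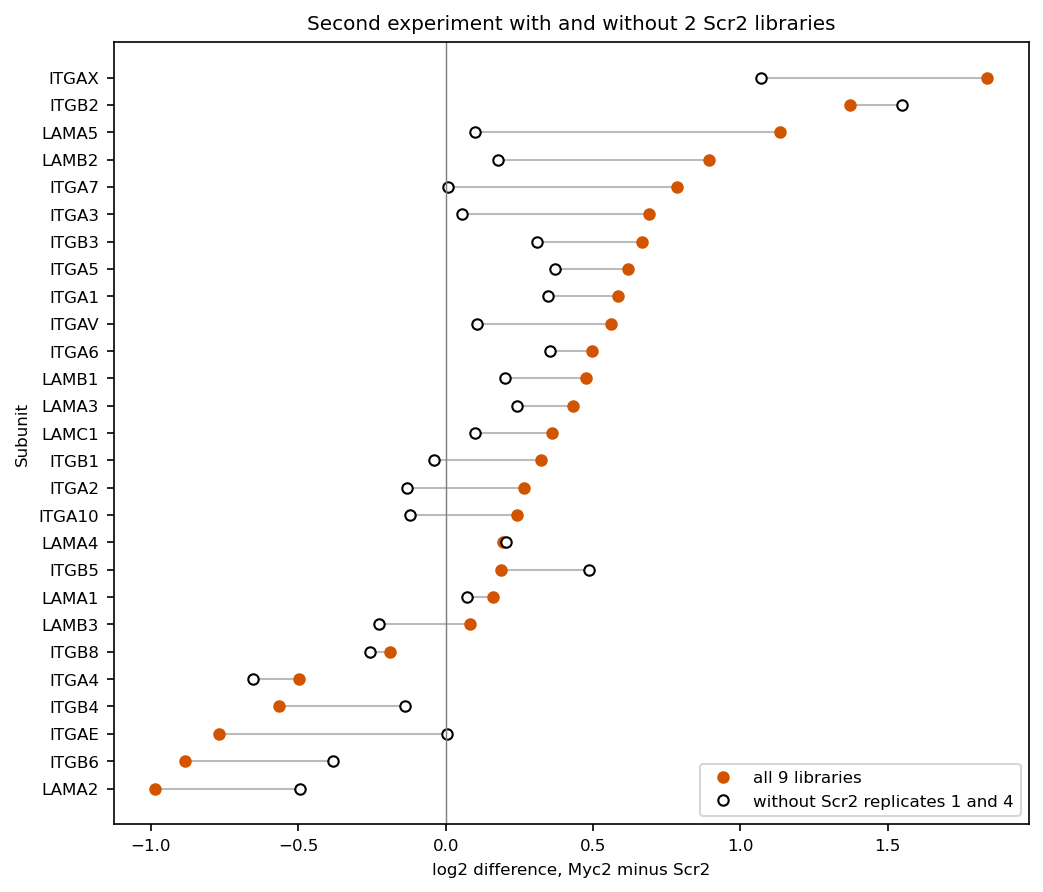
Log2 differences of tested subunits, Myc2 minus Scr2, with all 9 libraries (filled) and without Scr2 replicates 1 and 4 (open). Of the subunits plotted, the open points lie nearer 0 than the filled ones except for ITGB2, ITGB5, ITGA4, ITGB8, LAMB3 and LAMA4, with LAMA5 moving to 0.10 without those libraries, against 1.13 with all of them.

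By role, the laminin receptor alpha chains had a median difference of -0.27 with siRNA 1 (0 of 3 above 0) and 0.69 with siRNA 2 (3 of 3 above 0), which was 0.06 without Scr2 replicates 1 and 4. The RGD-binding chains ITGA5 and ITGAV had a median of -0.0029 with siRNA 1 and 0.59 with siRNA 2, or 0.24 without those libraries. The tested laminin beta chains had a median of 0.04 with siRNA 1 (2 of 3 above 0) and 0.48 with siRNA 2 (3 of 3), or 0.18 without them (2 of 3). The median within-group SD of the members was 0.63 log2 units in the second experiment, against 0.38 over all genes tested, and 0.42 in the first, against 0.37. ITGB2, ITGAX and LAMA4 varied most between tumours of a group in the second experiment, with SDs of 2.77, 1.31 and 1.13. ITGAX, ITGB8 and LAMA4 did so in the first, at 1.35, 0.83 and 0.74, while LAMB1, the most abundant laminin beta chain, had 0.21.

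Each siRNA was used in its own experiment with its own scramble control. A difference between the siRNAs can therefore not be told apart from one between the experiments. The difference between the effects of siRNA 1 and siRNA 2 was fitted over all 16 libraries and the 14891 genes that passed the filter in both tables together. It passed for 0 genes (percent called 0), with a smallest member adjusted p of 0.532, and 4 of 27 members had an unadjusted p under 0.05, against 8.74% of all genes. The siRNA 1 effect was above the siRNA 2 effect for 1 of these, against 4.16% of all genes, and below it for 3, against 4.58%. Over all tested members it was above for 7 of 27, against 51.3%, with a median of -0.43. Without Scr2 replicates 1 and 4 it was above for 12 of 27, and the median was -0.20. In that set 2 members had an unadjusted p under 0.05, as had 220 genes among all those tested. The shares over all genes given above are for all 16 libraries and do not apply to that set. Shares for that set are not given here, so its member counts cannot be set against those of all genes. With all libraries LAMA2 had the smallest p, with 0.86 for siRNA 1 and -0.99 for siRNA 2, a difference of 1.85 ± 0.61 (limma adjusted p = 0.532). LAMA1 followed, with -0.96 and 0.16, a difference of -1.12 ± 0.38 (limma adjusted p = 0.532). LAMA1 in the second experiment stood at 2.64, 2.72, 2.94, 2.30 and 2.31 in Myc2 and 2.17, 2.90, 2.13 and 2.50 in Scr2, which overlapped. LAMA5 (-0.46 and 1.13) differed by -1.60 ± 0.68 and ITGA3 (-0.27 and 0.69) by -0.96 ± 0.43 (limma adjusted p = 0.532 for both). Without Scr2 replicates 1 and 4 the differences were 1.36 for LAMA2, -1.03 for LAMA1, -0.56 for LAMA5 and -0.32 for ITGA3. LAMA4, the subunit with the largest difference of the first experiment, stood at 5.32, 3.89, 2.12, 2.84 and 4.92 in Myc2 and 3.13, 2.85, 4.37 and 4.13 in Scr2, an overlap with a difference of 0.19 ± 0.62.

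**Figure D5:**
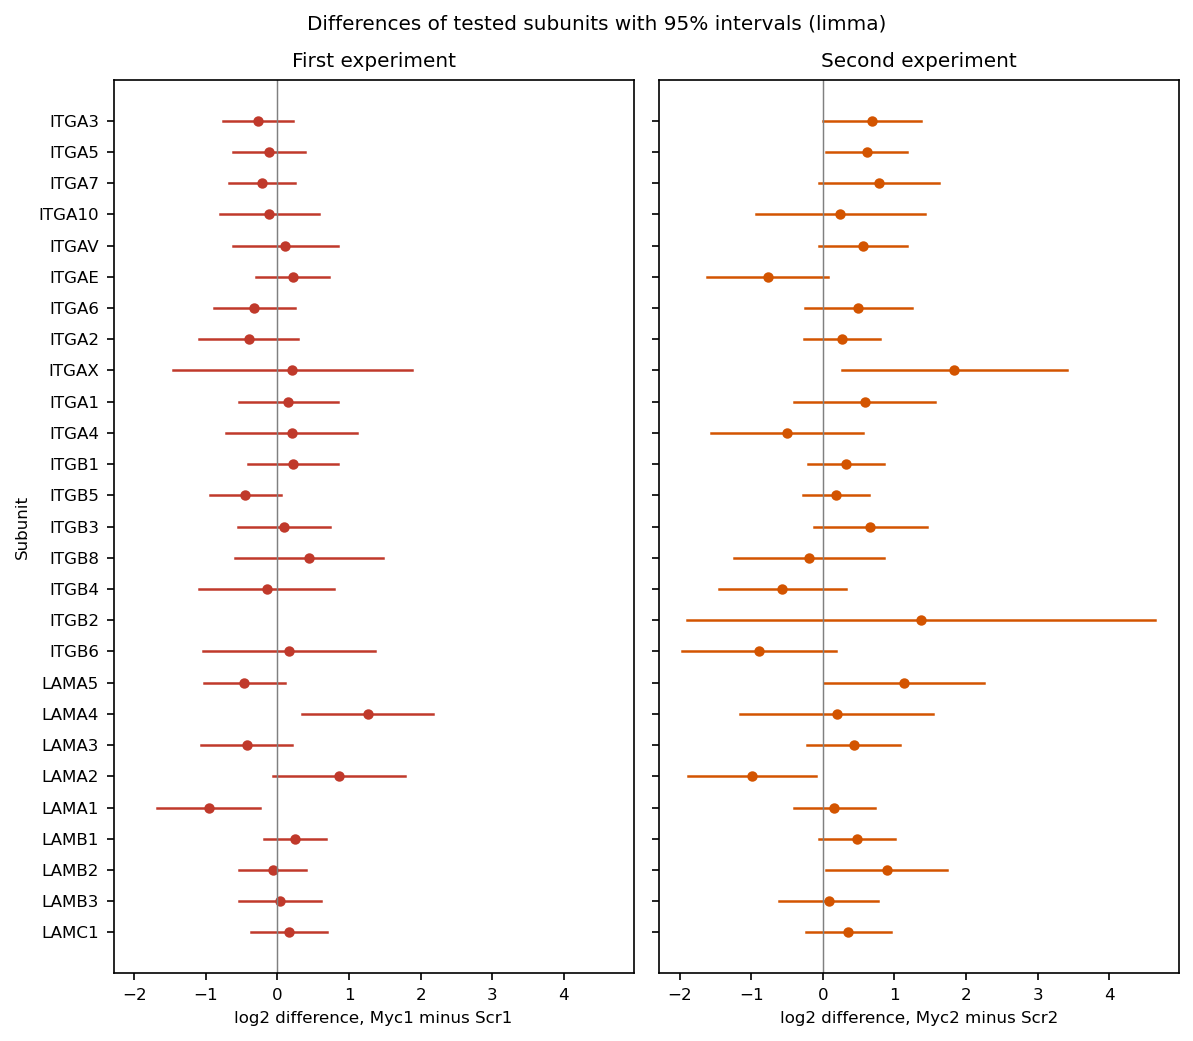
Log2 differences of tested subunits with 95% intervals, Myc1 minus Scr1 on the left and Myc2 minus Scr2 on the right. The interval lies clear of 0 on the left for LAMA4 and LAMA1, and on the right for ITGAX, LAMA2, ITGA5, LAMB2, LAMA5 and ITGA3, the last with a lower bound of 0.0047.

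Of the proteins that laminins meet in a basement membrane and of the other laminin receptors, 0 of 16 tested genes passed the adjusted threshold in the first experiment and 0 of 15 in the second. At an unadjusted p under 0.05 there were 0 higher and 1 lower in the first, where 1.96% and 1.52% of all genes were, and 1 higher and 0 lower in the second, where 7% and 6.36% were. The list's median difference was 0.12 with siRNA 1 and 0.09 with siRNA 2, against -0.0028 and -0.02 over all genes tested. Without Scr2 replicates 1 and 4 the siRNA 2 median turned to -0.04, with 9 of 15 below 0. COL15A1, a basement membrane collagen, averaged 4.79 log2 CPM in Myc1 and 5.70 in Scr1, a difference of -0.90 ± 0.28 (limma adjusted p = 0.996). HSPG2, the proteoglycan perlecan that links laminin networks, averaged 3.52 in Myc1 and 2.70 in Scr1 (difference 0.83 ± 0.40). It averaged 5.21 in Myc2 and 3.24 in Scr2, a difference of 1.97 ± 0.71 (limma adjusted p = 0.370) that was 0.54 without Scr2 replicates 1 and 4. NID2, a nidogen that joins laminin to collagen, averaged 5.54 in Myc1 and 4.94 in Scr1 (difference 0.60 ± 0.29), and 5.15 in Myc2 and 4.46 in Scr2 (difference 0.70 ± 0.33, and 0.21 without those replicates). AGRN, a laminin-binding proteoglycan, differed by 0.74 ± 0.41 with siRNA 2 and by -0.20 without those replicates.

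Of the other integrin ligands, 0 of 19 tested genes in the first experiment and 0 of 20 in the second passed, with 2 and 1 higher at an unadjusted p under 0.05, against 1.96% and 7% of all genes, and 0 lower in either, against 1.52% and 6.36%. EMILIN1, an elastic fibre protein, averaged 3.47 in Myc1 and 1.75 in Scr1 (difference 1.72 ± 0.57, and 0.98 without Myc1 replicate 3). POSTN, the matrix protein periostin, averaged 3.55 and 1.21 (difference 2.35 ± 0.98), and CTGF 4.45 and 5.13 (difference -0.69 ± 0.40). In the second experiment EMILIN1 and POSTN lay the other way, at -0.24 ± 0.41 and -1.22 ± 1.55, and CTGF the same way, at -0.34 ± 0.31. With siRNA 2 the smallest p was that of CYR61, a matricellular ligand, at 4.30 in Myc2 and 3.52 in Scr2, a difference of 0.78 ± 0.29 that was 0.60 without Scr2 replicates 1 and 4. COL6A1, a chain of collagen VI, differed by 0.95 ± 0.43, and by 0.10 without those replicates, and MFGE8, a ligand of ITGAV integrins, by 0.41 ± 0.19 and 0.56. The median was -0.08 with siRNA 1 and 0.19 with siRNA 2, and the siRNA 2 median turned to -0.15 without Scr2 replicates 1 and 4, with 14 of 20 below 0.

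Of the activators and adaptors inside the cell, 0 of 26 tested genes passed in either experiment, with 0 higher and 1 lower at an unadjusted p under 0.05 in the first, against 1.96% and 1.52% of all genes, and 0 in either direction in the second, against 7% and 6.36%. TNS1, a tensin that links integrins to actin, averaged 4.18 in Myc1 and 4.96 in Scr1 (difference -0.78 ± 0.34), and 5.97 in Myc2 and 5.06 in Scr2 (difference 0.92 ± 0.49, and 0.21 without Scr2 replicates 1 and 4). PTK2, the focal adhesion kinase, averaged 6.79 in Myc2 and 6.38 in Scr2, a difference of 0.41 ± 0.19 that was 0.32 without those replicates. ZYX, the adhesion protein zyxin, differed by 0.39 ± 0.22, and by 0.0016 without them. In the first experiment PTK2B, a kinase related to PTK2, and BCAR1, an adhesion scaffold, differed by -0.48 ± 0.29 and -0.38 ± 0.23. The median was -0.05 with siRNA 1 and 0.19 with siRNA 2, or 0.03 without Scr2 replicates 1 and 4, with 15 of 26 above 0.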

How the data were processed

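RNA sequencing was done on 16 U87 tumours, 1 per mouse, with RIN values of 7.2 or more, per the labels' protocols. The authors deposited log2 CPM per human Ensembl gene, 1 table per experiment (17318 and 18168 genes). The log2 unit and a quantile normalization within each table were read from the values, so a change of most genes at once cannot be seen. The submitters' processing notes name STAR 2.6.0b, bcl2fastq 2.20.0 and Picard and the builds hg19 and mm10; no source used here gives the counting tool, the strand setting or how mouse reads were separated. Columns were matched to samples by mouse number in the title. Depth was estimated from the steps of the lowest values (2 to 20), and each library's size limits low genes.

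Comparisons were fitted with limma 3.58.1 in R 4.3.3 (eBayes, trend and robust both on) over all genes reaching 1 CPM in at least 3 samples (siRNA 1), 4 (siRNA 2) or 3 (joint fit of 4 groups). Adjusted p are Benjamini-Hochberg values over all genes tested, with a threshold of 0.05. P-values measure the spread between mice. For MYC, labels were permuted exactly (35 and 126 arrangements, smallest p 0.0286 and 0.00794). The deposited values were already log2, so the log2(value + 1) foreseen for linear units was run as an alternative. Levels per kilobase divide CPM by the union of exons in GENCODE 29 (GRCh38), which may differ from the authors' annotation. A repeated symbol was taken by its row of highest mean. Values in every tumour are given for the 8 members with the smallest p in each comparison and the 4 with the smallest p for the difference of effects, and up to 3 genes are named per pathway list and comparison; ITGB2, ITGB3 and, in the second experiment, LAMA4 and ITGB5, with the markers CDH5 and NOTCH3, were added after their values were seen. Members and lists were chosen with earlier results of these data known. Scripts were tested on simulated data. No column was left unused (0). Values of 1 member are not reported here; it stays in the counts and medians over all members.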

Additional observations from a re-analysis of the deposited data

Results flagged for a closer look

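Within groups of 4 or 5 tumours, 2 of 86 sets of values held a tumour flagged by Dixon's ratio. This ratio is the gap to the nearest neighbour divided by the group's range, with a limit that depends on group size. It was 0.85 for ITGA7 in Myc2 and 0.83 for ITGAX in Scr2. Chance alone flags about 1 in 20 sets at these limits, and sets with wide gaps below the limits are not listed. ITGA7 was at 8.95 log2 CPM in Myc2 replicate 2, with the other Myc2 libraries between 7.95 and 8.10. ITGAX was at 3.31 in Scr2 replicate 2, with the other Scr2 libraries between 0.16 and 0.70.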

How the results depend on the processing

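No member was called under any of the 14 alternatives for siRNA 1, the 17 for siRNA 2 or the 23 for the difference of effects; the smallest member adjusted p (limma) were 0.663, 0.108 and 0.170. Over all genes, a filter at 5 CPM called 1 gene with siRNA 1 (1 higher, against 0), and leaving out both Scr2 replicates 1 and 4 called 2 with siRNA 2 (2 higher). With 1 library left out the calls ran from 0 to 2 (0 to 1 higher, 0 to 1 lower) with siRNA 1 and from 0 to 9 (0 to 8 higher, 0 to 2 lower) with siRNA 2; the cause was not tested. Genes at an unadjusted p under 0.05 numbered 485 with siRNA 1 (181 without Myc1 replicate 3, 955 without Scr1 replicate 3), 1898 with siRNA 2 (719 without Scr2 replicate 4, 3928 without Scr2 replicate 2, 509 without both Scr2 replicates 1 and 4) and 1301 for the difference of effects (583 without Scr2 replicate 4, 2937 without Scr2 replicate 2, 220 without both). Among the genes reported, the sign turned without both Scr2 replicates 1 and 4 for ITGA2 (-0.13), ITGAE (0.0053), AGRN (-0.20), ITGA10 (-0.12), ITGB1 (-0.04) and LAMB3 (-0.23), and for ITGB3 with siRNA 1 over the mean of its rows (-0.11). With 1 library left out, the siRNA 1 difference ran from -0.19 to 0.0251 for LAMB2, -0.11 to 0.27 for ITGB3, -0.63 to 0.91 for ITGAX and -0.26 to 0.0553 for ITGA5, and the siRNA 2 difference from -0.18 to 0.62 for LAMA4. MYC differed by 0.41 to 0.70 with siRNA 2 (exact permutation p = 0.0357 to 0.107) and by -1.17 to -0.39 with siRNA 1. In all, 814 values of single genes kept their direction and side of the threshold, 15 (of the members and genes described by their values) turned their sign and 8, all of MYC with siRNA 2 and 1 library left out, missed the threshold. No limma value had passed the threshold in the main fits, so keeping that side says little for them. Sizes could also move within this count, as for LAMA5 with siRNA 2 (1.13, and 0.10 without Scr2 replicates 1 and 4). No paired analysis was possible because the labels give no replicate numbers that tie tumours of different groups. Low depth limits the chains under 1 CPM, such as ITGAL, ITGAM and LAMB4, most of all in Scr1 replicate 3.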
